A study of Mus musculus with 2 samples.

Results

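Collagens are the proteins of the extracellular matrix that wind 3 chains into a triple helix, in which glycine takes the first place of each triplet of residues. Fibrillar collagens form the cables of tendon and of the connective tissue around muscle fibres, type IV chains form the sheet of the basement membrane that wraps each fibre and capillary, and type VI chains form beaded filaments between these structures. In skeletal muscle these chains come mostly from resident fibroblasts and from cells of the vessel wall, not from the muscle fibres. The genes described here are the 44 protein-coding mouse genes named as collagen chains (Col, a type number, a and a chain number), chosen by symbol and not by any measured value. They stand among 15747 annotated genes with a read in either library.

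The study sequenced long RNA molecules from gastrocnemius, the large calf muscle, of female B6CASTF1/J mice, the first-generation hybrid of the strains C57BL/6J and CAST/EiJ. The mice were 14 days old. There is 1 group, of 2 libraries named biological replicates 1 and 2, each started from 2 µg of total RNA, with no treatment and no altered allele in the labels. By its biosample label replicate 1 came from 3 females, while that of replicate 2 says female with no number, and the donor identifier is shared by both. The labels do not say whether RNA of several animals was pooled. The design holds no contrast between conditions. Every comparison of the replicates below compares these libraries, and its p-values and intervals cover counting error.

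The mark of a collagen gene is visible in its exons. Each glycine codon is GGN, so the coding sequence of the helix reads GGN at the start of each triplet of codons. Many helix exons are 54 bases long and begin with such a codon, though not all do. The exons below are printed because they show the repeat in the chains with the most reads. Sequences are from the GENCODE M21 transcripts on mm10, in coding direction, with GGN glycine codons in capitals. Each exon is the one nearest the centre of the longest uninterrupted run of glycine triplets, among in-frame exons with a multiple of 9 bases. For the fibrillar genes only exons of 54 bases were considered. The exons chosen are exon 29 of Col1a1 (chr11:94944914-94944967, plus strand), exon 28 of Col3a1 (chr1:45335728-45335781, plus strand), exon 29 of Col1a2 (chr6:4524876-4524929, plus strand) and exon 5 of Col4a1 (chr8:11245893-11245937, minus strand).
Col1a1 exon 29: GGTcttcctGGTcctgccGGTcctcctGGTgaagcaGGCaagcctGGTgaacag
Col3a1 exon 28: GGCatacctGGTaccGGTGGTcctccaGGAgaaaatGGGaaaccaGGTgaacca
Col1a2 exon 29: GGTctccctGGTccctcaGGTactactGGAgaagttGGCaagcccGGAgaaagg
Col4a1 exon 5: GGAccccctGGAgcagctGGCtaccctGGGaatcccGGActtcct

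The fibrillar exons have 54 bases by the rule of choice, and the Col4a1 exon has 45. In the Col3a1 exon a glycine codon also stands at a position that the repeat leaves free. The longest unbroken run of triplets was 338 in Col1a1, 344 in Col3a1 and 339 in Col1a2, and those of Col5a1, Col5a2 and Col5a3 were 338, 339 and 337. In Col4a1 the longest run was 40 triplets, and its 436 triplets lay in 22 runs of at least 5. Col6a1 and Col6a2 each had a longest run of 87 triplets. Of 690 annotated exons inside the longest runs of the 44 genes, 681 (98.7%) had a length that is a multiple of 9 bases and 359 had 54 bases. All 470 such exons of fibrillar genes were multiples of 9. Of the 690 exons, 663 began with the GGN codon of a triplet, but of the 24 in type IV genes only 13 did. The share was 62.5% over all 1967 annotated internal exons of these genes and 14.0% over 180243 internal exons of all protein-coding transcripts. These are properties of the annotation and not of the reads.

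Depth and library differences come before the levels. Annotated genes took 1248854 reads in replicate 1 and 1106450 reads in replicate 2, and levels are given as CPM, counts of a gene after scaling each library to that total. Each read is counted as 1 whatever its length, so CPM is not divided by transcript length. With 0.801 CPM to a read in replicate 1 and 0.904 in replicate 2, the limit that a count of 0 allows, 3 reads, was 2.40 and 2.71 CPM. Replicate 1 held longer models, with a mean length of 2347 bases against 1545 in replicate 2. Over all genes tested, the median log2 ratio of replicate 1 over replicate 2 was -1.30 for transcripts under 1000 bases, 0.46 for those of 4000 to 6000 bases and 0.37 for longer ones. Most collagen transcripts have over 4000 bases. Reads of the 5 muscle fibre markers were abundant in both libraries, as the tissue label says, with sums of 272725 and 182028 CPM. Ckm, the muscle creatine kinase, was nearly level at 61198 and 60042 CPM, the calcium pump gene Atp2a1 was called higher in replicate 1 (115580 and 35810.0 CPM) and the troponin gene Tnnt3 higher in replicate 2 (1315 and 2475 CPM).

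Markers of other cell types moved between the libraries as well, and their part in the collagen values was not tested. For all marker calls, here and among the muscle fibre genes, the threshold is given below. Over all genes tested, 20.2% were called, 8.83% as higher in replicate 1 and 11.4% as higher in replicate 2. The 9 fibroblast markers had reads in both libraries and summed to 1573 CPM in replicate 1 and 1019 CPM in replicate 2, led by Gsn, Dcn and Cd34. Most of that gap lay in Gsn alone (996 and 471 CPM), the median log2 ratio of the list was -0.17, and the only marker called was Dpt, as higher in replicate 2 (13 and 36 reads). Of Schwann cell markers, Pmp22 had 331 reads in replicate 1 and 648 in replicate 2 and Mbp had 174 and 330, and both were called higher in replicate 2. Sox10 had 14 reads in each library. The 4 endothelial markers, led by Cldn5, Pecam1 and Cdh5, summed to 251 and 156 CPM, and Pecam1 and Cdh5 were called higher in replicate 1, calls that were lost with the length trend removed. The 7 tendon markers, led by Fmod, Tnmd and Thbs4, summed to 305.1 CPM in replicate 1 and 304.6 in replicate 2, with members on both sides. Fmod had 181 and 114 reads, while Tnmd (57 and 96 reads) and Scx (22 and 48) were called higher in replicate 2, calls that were lost with the length trend removed. Those of mural cells summed to 352 and 364 CPM, but Acta2 was called higher in replicate 2 (187 and 292 reads) and Myh11 higher in replicate 1 (25 and 2), and Rgs5 had 228 and 109 reads. Macrophage markers (Csf1r, Mrc1 and Adgre1) summed to 36.03 and 18.98 CPM. Csf1r had 21 and 16 reads and Adgre1 had 5 and 1. Mrc1 (19 and 4) was called higher in replicate 1, a call that was lost with the length trend removed. The satellite cell markers Myf5 and Pax7 had 7 and 2 reads together. None of the 4 bone markers (Bglap, Ibsp, Sp7 and Runx2) had a read, and of the 5 cartilage markers Matn1 and Hapln1 had none, Acan had 0 and 1 read, Sox9 had 2 and 0, and Comp had 24 and 9. In a bulk sample, fewer cells of a type and less RNA per cell cannot be told apart.

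Collagen chains took 12587 reads in replicate 1, which is 1.01% of its gene reads (Wilson 95% interval 0.991 to 1.03%). In replicate 2 they took 5321 reads, or 0.481% (0.468 to 0.494%). The mean share was 0.744% ± 0.373 (SD, n = 2), so the libraries differed by a factor of about 2 in a family that both rank in nearly the same order. Of the 44 genes, 33 had a read in both libraries, 5 in replicate 1 alone and 6 in neither. Across the 38 genes with reads, Spearman's rho of the reads between the libraries was 0.939, a value across genes, which are not independent replicates.

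Few genes carried the family. Col3a1 and Col1a1 together held 75.2% of collagen reads in replicate 1 and 64.0% in replicate 2, and the 6 genes with the highest mean held 94.0% and 91.9%. By structural class, fibrillar chains held 83.0% (95% interval 82.4 to 83.7%) and 77.5% (76.3 to 78.6%) of the collagen reads. The type IV chains of basement membranes held 12.3% (11.7 to 12.9%) and 16.7% (15.7 to 17.7%), and the type VI chains held 3.01% (2.73 to 3.32%) and 3.36% (2.91 to 3.88%). The 9 FACIT genes, whose products sit on the surface of fibrils, held 0.858% and 1.24%, and the 2 multiplexin genes, which code for basement membrane collagens with a cleavable end domain, held 0.572% and 0.902%. All other classes stayed at or under 0.169%.

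**Figure D1:**
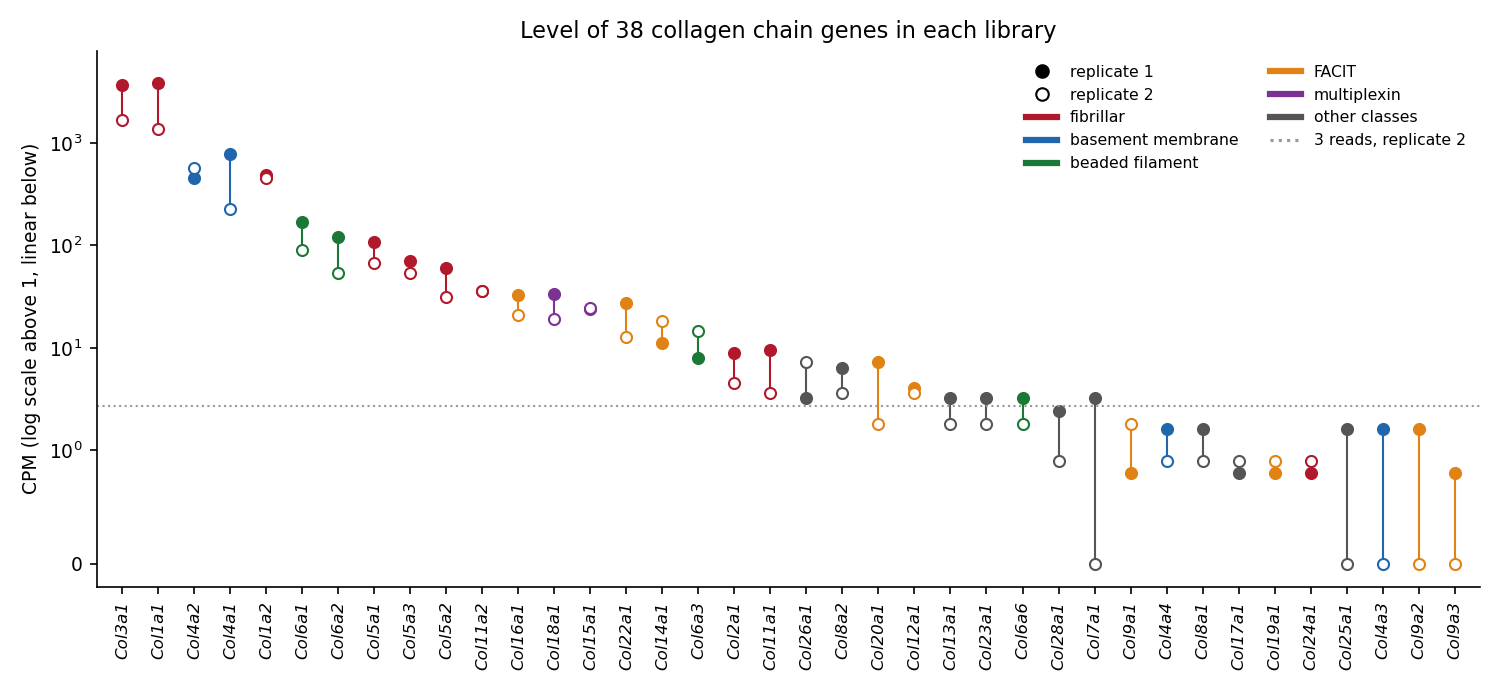
CPM (log scale above 1, linear below) of the 38 collagen chain genes with a read, ordered by mean CPM, with filled circles for replicate 1, open circles for replicate 2 and colours for structural class. Levels run from 3844 CPM (Col1a1 in replicate 1) down to single reads, most genes lie higher in replicate 1, and Col4a2 and Col4a1 lie in opposite orders in the 2 libraries.

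Among fibrillar chains, Col3a1 had the highest mean. It codes for the chain of type III collagen, a homotrimer of soft connective tissue (ENSMUSG00000026043.18, chr1:45311538-45349706, plus strand). Col3a1 had 4665 reads (3735 CPM) in replicate 1 and 1881 reads (1700 CPM) in replicate 2. Its log2 ratio of replicate 1 over replicate 2 was 0.85, under the 1 needed for a call (Fisher's exact test over all genes, adjusted p = 1.1e-197). Col1a1 codes for the alpha 1 chain of type I collagen, of which each heterotrimer takes a pair (ENSMUSG00000001506.10, chr11:94936224-94953042, plus strand). It had 4801 reads (3844 CPM) and 1522 reads (1376 CPM), a log2 ratio of 1.20 (adjusted p = 5.31e-307), and was called higher in replicate 1. Without the length trend its log2 ratio was 0.75 and the call was lost.

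Col1a2 codes for the alpha 2 chain, the partner chain of type I collagen (ENSMUSG00000029661.16, chr6:4504814-4541544, plus strand). It had 616 reads (493 CPM) in replicate 1 and 501 reads (453 CPM) in replicate 2, with a log2 ratio of -0.16 (Fisher's exact test, adjusted p = 0.294). Over all reads the libraries therefore lay close for Col1a2 and far apart for its partner, but this contrast depended on the setting. After correction for transcript length Col1a2 stood at -0.62 (exact binomial test, adjusted p = 5.7e-11) and Col1a1 at 0.75, and neither was called. In full splice models, described below, both were called higher in replicate 1, at 1.16 for Col1a2 and 1.69 for Col1a1. In models of 2 or more exons the values were 0.13 and 1.35, and only Col1a1 was called. Col1a1 had 7.79 reads per Col1a2 read in replicate 1 (95% interval 7.17 to 8.48) and 3.04 in replicate 2 (2.75 to 3.36). Both values, counted in RNA reads, lie above the 2 to 1 ratio of the protein chains in the type I heterotrimer. Protein was not measured. Counting full splice models alone gave 82.4 and 58.6, while in models that are parts of an annotated chain the ratio was 1.22 and 0.988.

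Type V collagen forms the core on which type I fibrils assemble, and its chains were the next fibrillar genes. Col5a1 (ENSMUSG00000026837.15, chr2:27886425-28039514, plus strand) had 135 reads (108.1 CPM) and 74 reads (66.9 CPM). Col5a3 (ENSMUSG00000004098.7, chr9:20770050-20815067, minus strand) had 88 reads (70.5 CPM) and 59 reads (53.3 CPM). Col5a2 (ENSMUSG00000026042.16, chr1:45374321-45503282, minus strand), which lies next to Col3a1 in the opposite direction, had 76 reads (60.9 CPM) and 35 reads (31.6 CPM). All 3 had log2 ratios above 0, of 0.40, 0.11 and 0.65 (Fisher's exact test, adjusted p = 0.00414, 0.207 and 0.00541), and none reached the fold needed for a call. With the length trend removed the log2 ratios were 0.06, -0.34 and 0.22. The order Col5a1, Col5a3, Col5a2 was the same in both libraries. Col5a1 over Col5a2 was 1.78 (1.34 to 2.35) in replicate 1 and 2.11 (1.42 to 3.15) in replicate 2, intervals that overlap, and Col5a3 over Col5a1 was 0.652 (0.499 to 0.852) and 0.797 (0.567 to 1.12).

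Of the type XI and type II chains, which form the thin fibrils of cartilage, Col11a2 had the most reads (ENSMUSG00000024330.17, chr17:34039437-34066685, plus strand). Col11a2 had 45 reads (36.0 CPM) in replicate 1 and 40 reads (36.2 CPM) in replicate 2, so the libraries did not differ beyond counting error (log2 ratio -0.29, Fisher's exact test, adjusted p = 1). Col2a1, the chain of cartilage fibrils, had 11 and 5 reads, and Col11a1 had 12 and 4. Of the cartilage markers, Acan, Matn1 and Hapln1 were at 0 or 1 read in these libraries, Sox9 had 2 and 0, and Comp had 24 and 9. The cells that these reads came from were not tested. Col24a1 had 1 read in each library and Col27a1 had none.

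In the basement membrane class, Col4a1 and Col4a2 code for the chains of the ubiquitous type IV heterotrimer, with a pair of alpha 1 chains to each alpha 2 chain. Their genes lie head to head on chromosome 8 and their annotated starts overlap by 22 bases. Col4a1 (ENSMUSG00000031502.11, chr8:11198423-11312826, minus strand) had 975 reads (781 CPM) in replicate 1 and 254 reads (230 CPM) in replicate 2. It was called higher in replicate 1, with a log2 ratio of 1.48 (Fisher's exact test, adjusted p = 5.08e-80), and 1.05 with the length trend removed (adjusted p = 2.41e-26). Col4a2 (ENSMUSG00000031503.13, chr8:11312805-11449287, plus strand) had 567 reads (454 CPM) and 632 reads (571 CPM), a log2 ratio of -0.62 that did not reach the fold for a call.

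The order of these partners depended on which reads were counted. Over all reads, Col4a1 over Col4a2 was 1.72 (1.55 to 1.91) in replicate 1 and 0.402 (0.347 to 0.465) in replicate 2. Of the Col4a2 reads, 168 of 567 (29.6%) in replicate 1 and 512 of 632 (81.0%) in replicate 2 were in models of a single exon, against 24 of 975 (2.46%) and 31 of 254 (12.2%) for Col4a1. Among models of at least 2 exons, an alternative chosen after seeing the data, the ratio was 2.38 (2.12 to 2.68) and 1.86 (1.49 to 2.32). In full splice models it was 2.69 (2.29 to 3.15) and 3.13 (2.09 to 4.68), with intervals that overlap. Col4a2 itself turned round with this choice: its log2 ratio was -0.62 over all reads and 2.12 in full splice models (adjusted p = 5.68e-24). With the length trend removed, the value over all reads was -1.05 (adjusted p = 4.34e-34). The other type IV chains were close to the limit of detection. Col4a4 had 2 reads and 1 read, Col4a3 had 2 reads in replicate 1 alone, and Col4a5 and Col4a6 had none.

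**Figure D2:**
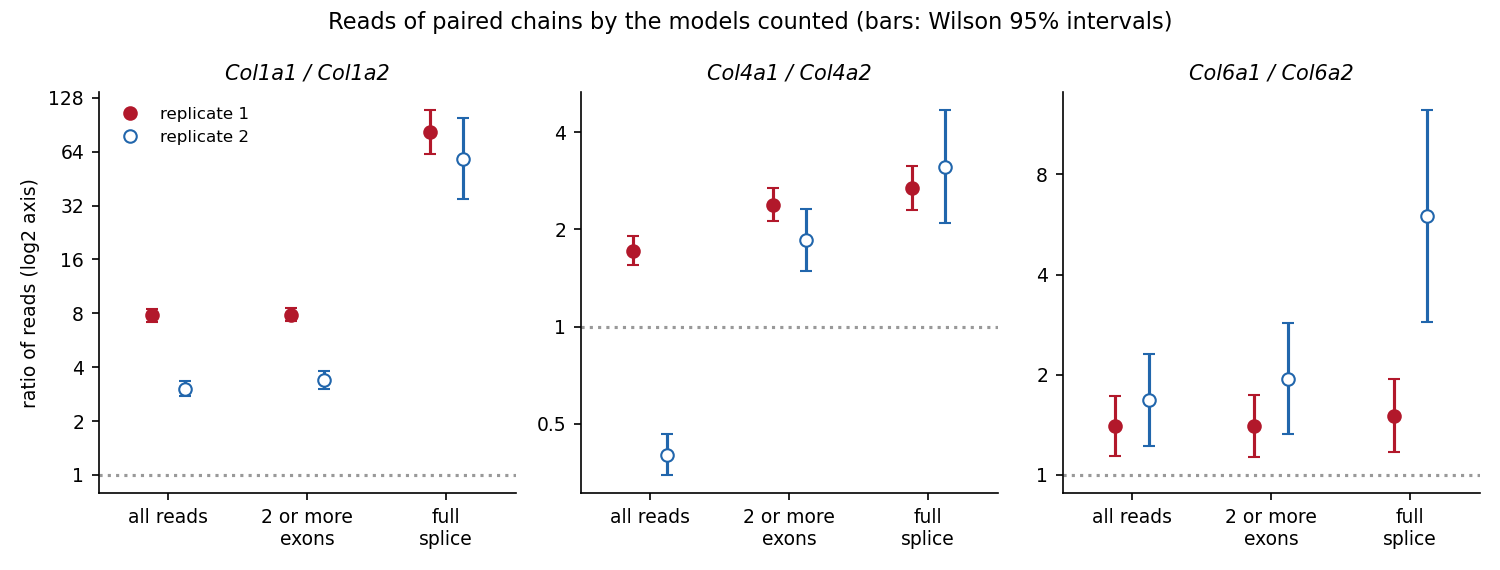
Ratio of reads (log2 axis) of Col1a1 over Col1a2, Col4a1 over Col4a2 and Col6a1 over Col6a2, counted over all reads, over models of 2 or more exons and over full splice models, with filled red circles for replicate 1, open blue circles for replicate 2 and Wilson 95% intervals as bars. Col4a1 over Col4a2 lies on both sides of 1 for all reads (1.72 and 0.402) and above 1 in both libraries for full splice models (2.69 and 3.13), and Col1a1 over Col1a2 reaches 82.4 and 58.6 there.

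Type VI collagen links the basement membrane of the muscle fibre to the surrounding matrix, and human mutations in its chains cause muscular dystrophy and myopathy. Col6a1 (ENSMUSG00000001119.7, chr10:76708792-76726168, minus strand) had 213 reads (171 CPM) and 101 reads (91.3 CPM). Col6a2 (ENSMUSG00000020241.13, chr10:76595762-76623630, minus strand) had 152 reads (122 CPM) and 60 reads (54.2 CPM). Both were higher in replicate 1, with log2 ratios of 0.61 and 0.88, below the fold for a call, and of 0.20 and 0.47 with the length trend removed. Col6a1 over Col6a2 was 1.40 (1.14 to 1.72) and 1.68 (1.22 to 2.31), intervals that overlap. Col6a3 codes for the largest chain of the same trimer and has an annotated transcript of 10106 bases. It had only 10 reads in replicate 1 and 16 in replicate 2, or 0.0469 (0.0252 to 0.0876) and 0.158 (0.0940 to 0.267) reads per Col6a1 read. A single Col6a3 read in each library was in a full splice model. Col6a6 had 4 and 2 reads, and Col6a4 and Col6a5 had none.

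FACIT and multiplexin genes were low in both libraries. Col16a1 (ENSMUSG00000040690.15, chr4:130047840-130099283, plus strand), a FACIT chain, had 41 reads (32.8 CPM) and 23 reads (20.8 CPM). Col18a1 (ENSMUSG00000001435.15, chr10:77052178-77166548, minus strand), whose end domain is cleaved to endostatin, had 42 reads (33.6 CPM) and 21 reads (18.98 CPM). Col15a1 (ENSMUSG00000028339.17, chr4:47208161-47313167, plus strand), its relative in the basement membranes of muscle and capillaries, had 30 reads (24.02 CPM) and 27 reads (24.40 CPM). Over all reads none of these 3 passed Fisher's exact test, with adjusted p-values of 0.177, 0.0857 and 1. In full splice models all 3 were called higher in replicate 1, where 22.3% of all genes were called and 11.4% in that direction. The log2 ratios were 1.18, 1.19 and 1.37 (Fisher's exact test, adjusted p = 0.0432, 0.0182 and 0.0219). These rest on 22, 29 and 25 reads in replicate 1 and 6, 8 and 6 in replicate 2. Col18a1 was also called in models of 2 or more exons (1.08, adjusted p = 0.00602), against 20.3% of all genes. Over all reads with the length trend removed, the log2 ratios were -0.10, 0.07 and -0.77, and none was called. Col22a1, a chain of the junction between muscle and tendon, had 34 and 14 reads, and Col14a1, a chain on mature fibrils, had 14 and 20.

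The remaining genes were near the limit of detection. Col26a1 had 4 and 8 reads, Col8a2 had 8 and 4, Col20a1 had 9 and 2, and Col12a1, a FACIT chain of tendon and muscle connective tissue, had 5 and 4. The other detected genes had between 1 and 4 reads in replicate 1 and between 0 and 2 in replicate 2. They are Col13a1, Col17a1, Col23a1 and Col25a1 of the membrane-spanning class, Col7a1 of the anchoring fibrils of skin, Col8a1, Col28a1, and the FACIT genes Col9a1, Col9a2, Col9a3 and Col19a1. Levels at or under 3 reads in a library set no order among these genes. No read was assigned in either library to Col4a5, Col4a6, Col6a4, Col6a5, Col10a1 or Col27a1, and each could be present at up to 2.40 CPM in replicate 1.

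Per kilobase of the main annotated transcript the same 10 genes had the highest means. Col3a1 had 488 and Col1a1 had 440 CPM per kilobase, followed by Col1a2 with 88.4, Col4a2 with 79.5 and Col4a1 with 76.4. On this scale too, Col1a2 lay well below Col1a1.

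Of the 44 genes, 22 reached 10 reads in the sum and were tested, and 2 of these (Col1a1 and Col4a1) were called as differing between the libraries, both higher in replicate 1. The threshold was an adjusted p under 0.05 together with a difference of at least 1 on the log2 scale. Over all 8973 genes tested, 20.2% were called, 8.83% as higher in replicate 1 and 11.4% as higher in replicate 2, so the share called among collagen genes is no larger than that of the table as a whole. The median log2 ratio was 0.49 over the 22 collagen genes and -0.01 over all genes. With the length trend of the ratios removed it was 0.06 over the collagen genes. In that setting 3 collagen genes were called, against 10.6% of all genes: Col4a1 as higher in replicate 1 (3.71% of all genes), and Col4a2 and Col14a1 as higher in replicate 2 (6.89% of all genes). In full splice models 10 of 17 collagen genes were called, all as higher in replicate 1, while 22.3% of all genes were called and 11.4% in that direction. In models of 2 or more exons 6 of 20 collagen genes were called (20.3% of all genes), and with scaling by the total 5 of 22 (21.4%). With DESeq2 size factors (20.5% of all genes), without a filter on reads (10.4%) and with at least 20 reads (24.1%) Col1a1 and Col4a1 were again the called collagen genes. edgeR's exact test with the spread between the libraries as the common dispersion called no collagen gene and none had an unadjusted p under 0.05, while it called 7 genes in all (0.078%).

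The long reads also show how much of each annotated transcript the models covered. The authors' tables place each read in a class. Known models have a complete annotated intron chain, and NIC and NNC are unannotated chains, which need not span the whole gene. ISM models hold part of an annotated chain, and Genomic models lie over a gene but do not follow its splice pattern. Known, NIC and NNC together are called full splice models here, though some NIC and NNC models are incomplete. In Col1a2, 49 reads in replicate 1 and 14 in replicate 2 were in full splice models. Only 34 and 8 Col1a2 reads in models of at least 2 exons, of any class, reached the annotated first exon. Known models took 70.4% of collagen reads in replicate 1 and 42.8% in replicate 2, and ISM models took 23.2% and 46.7%. In other genes with transcripts of 5000 to 7000 bases, Known models took 45.3% and 28.6% and ISM models 27.9% and 40.4%. The collagen values rest on Col1a1 and Col3a1. Without these 2 genes, Known models took 31.0% and 9.33% of collagen reads and ISM models took 55.4% and 78.2%.

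**Figure D3:**
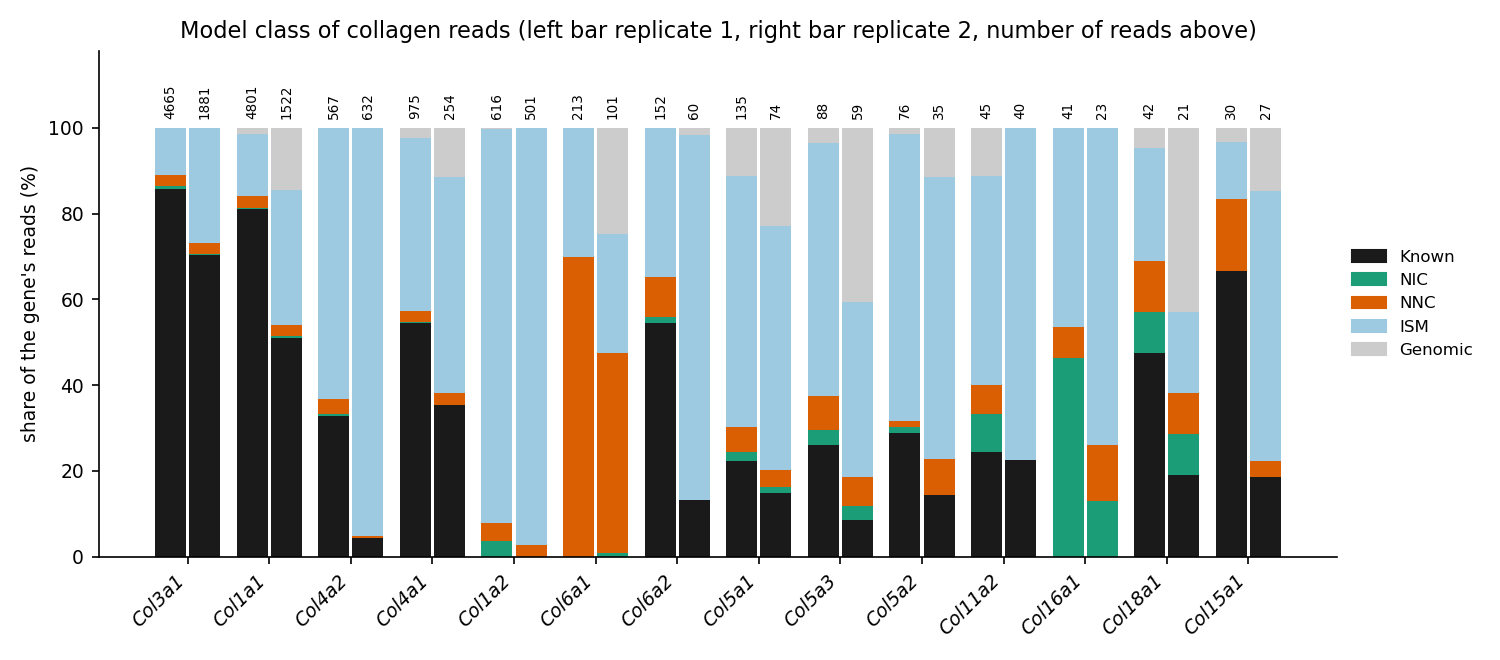
Share of reads (%) in each model class for the 14 collagen genes that had 50 reads or more in both libraries together, with replicate 1 as the left and replicate 2 as the right bar and the number of reads above. Known models (black) take 85.9% and 70.3% of Col3a1 reads, no read of Col1a2, Col6a1 or Col16a1, and a smaller share in replicate 2 for each of the other genes.

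The share of reads that reached the first exon differed among the main fibrillar genes, whose transcripts are of similar length. In Col3a1, 89.6% of reads in models of at least 2 exons reached the annotated first exon in replicate 1 and 83.1% in replicate 2. In Col1a1 these shares were 85.5% and 67.7%. In Col1a2 they were 5.67% (34 of 600, 95% interval 4.08 to 7.81%) and 2.25% (8 of 356, 1.14 to 4.37%). The Col1a2 transcript has 5348 bases, against 5930 in Col1a1 and 5564 in Col3a1.

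The decline of Col1a2 reads from the 3′ to the 5′ end was gradual along the gene. Its last junction was crossed by 599 reads in replicate 1 and 355 reads in replicate 2, the middle junction by 329 (54.9%) and 107 (30.1%), and the fourth by 45 (7.51%) and 13 (3.66%). At the fourth junction Col1a1 still had 86.6% and 68.1% of the reads of its last junction. In reads, Col1a1 had 4697 and 1198 at its last junction and 4069 and 816 at the fourth. Why the shares differ between these genes was not tested. Among the other chains the first exon was reached by 57.8% and 42.2% of Col4a1 reads, 202 of 399 and 30 of 120 Col4a2 reads, 72.8% and 63.2% of Col6a1 reads, and 67.4% and 20.5% of Col6a2 reads. In the type V chains the range was 29.2 to 31.8% in replicate 1 and 17.1 to 24.1% in replicate 2. The share was lower in replicate 2 for all 14 genes.

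**Figure D4:**
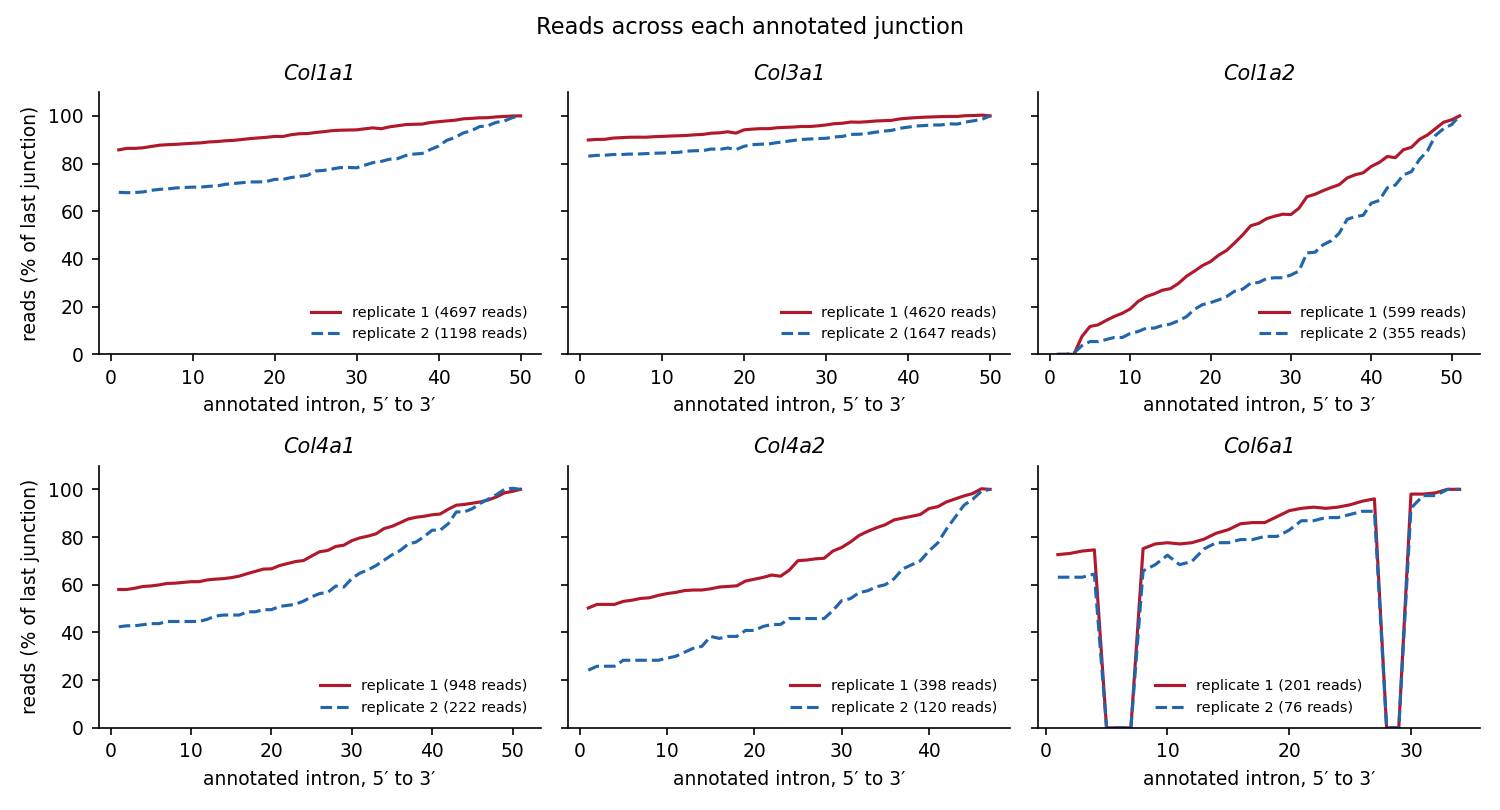
Reads across each annotated junction, from 5′ to 3′, as % of the reads across the last junction of the main transcript of 6 collagen genes, with solid red lines for replicate 1 and dashed blue lines for replicate 2. At the fourth junction Col1a1 still has 86.6% and 68.1% and Col3a1 90.7% and 83.8%, Col1a2 declines along its whole length to 7.51% and 3.66% there, and Col6a1 drops to 0 at the junctions of its small exons.

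Col1a2 and Col6a1, like Col16a1, had no read in a Known model. In Col1a2 and Col6a1 the reads left out small exons of the annotated chain. In Col1a2, exon 2 of 11 bases and exon 3 of 15 bases were included by 0 of 34 and 0 of 40 informative reads in replicate 1 and by 0 of 8 each in replicate 2. In replicate 2 the annotated junction between exons 3 and 4 was crossed by 2 reads and that between exons 2 and 3 by 0. In Col6a1, exons 6 and 7 of 21 bases each were included by 0 of 151 reads in replicate 1 and 0 of 49 in replicate 2, and exon 29 of 9 bases by 0 of 196 and 0 of 69. The most-read chain of Col6a1 was accordingly an unannotated chain of 31 introns with 139 and 42 reads. The sequences of these exons, joined where they are neighbours, are printed with 12 bases of the flanking exons from the GENCODE M21 transcripts, with the small exons in capitals. They span chr6:4508335-4508954 (plus strand), chr10:76721088-76721283 (minus strand) and chr10:76712865-76712873 (minus strand) on mm10.
Col1a2 exons 2 and 3: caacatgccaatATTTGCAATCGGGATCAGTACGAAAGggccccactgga
Col6a1 exons 6 and 7: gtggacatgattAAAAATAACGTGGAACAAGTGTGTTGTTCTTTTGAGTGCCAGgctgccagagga
Col6a1 exon 29: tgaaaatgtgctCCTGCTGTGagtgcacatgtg

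The models that left these exons out were longer in a neighbouring exon. The Col6a1 intron from 76721043 to 76721402 left out 42 annotated bases and added 37 bases to the neighbouring exon, a net change of -5 bases, in 151 and 49 reads. The intron from 76712402 to 76713180 left out 9 bases and added 4, again a net change of -5 bases, in 194 and 66 reads. In Col1a2 an intron from 4505914 to 4509603 left out 26 bases and added 4 (25 and 4 reads), and another from 4505910 to 4509587 left out 26 and added 16 (9 and 3 reads). No genome sequence was used here, so the added bases were not compared with those of the missing exons.

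Exon size separated these cases from most others. Among internal exons of the main annotated transcripts with at least 20 informative reads, all 656 exons over 30 bases in replicate 1 and all 377 in replicate 2 were included by more than 90% of reads, with a lowest value of 92.0% and 95.0%. Of exons of at most 30 bases, 17 of 23 and 5 of 8 were. Size alone did not decide it: the 14-base exon 3 of Col5a2 was included by 24 of 24 reads and the 21-base exon 4 of Col6a2 by 110 of 112 in replicate 1.

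**Figure D5:**
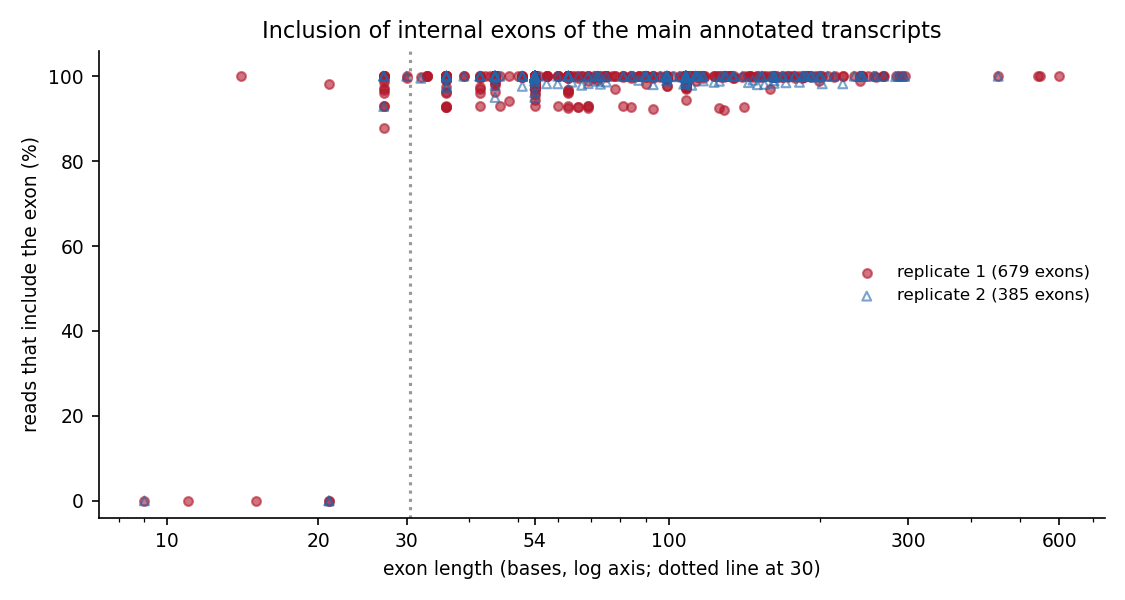
Share of informative reads (%) that include each internal exon of the main annotated transcripts against exon length in bases (log axis), for exons with at least 20 informative reads, with filled red circles for replicate 1 and open blue triangles for replicate 2. All exons over 30 bases (right of the dotted line) lie at 92.0% or higher, and the exons at 0% have 21 bases or fewer.

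No internal exon of any annotated transcript was used at 10 to 90% with at least 20 informative reads in both libraries. In replicate 1 alone 3 exons were, and they were chosen after their values were seen. An exon of Col16a1 of 45 bases (chr4:130081435-130081479, plus strand), inside the gene's helix, was included by 22 of 37 reads (59.5%, 95% interval 43.5 to 73.7%) in replicate 1 and by 5 of 11 (45.5%, 21.3 to 72.0%) in replicate 2. A second Col16a1 exon of 100 bases was included by 8 of 23 reads, and the 27-base exon 15 of Col18a1 by 29 of 33. The 45-base Col16a1 exon is printed because it is the alternative exon with the most informative reads, with GGN glycine codons in capitals, and it is made of whole triplets.
Col16a1 exon of 45 bases: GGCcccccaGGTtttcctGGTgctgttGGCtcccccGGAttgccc

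For most of the 14 genes the most-read chain of the full splice models was annotated. It had 50 introns in Col1a1 (3894 and 775 reads) and in Col3a1 (4006 and 1322 reads), 51 in Col4a1 (531 and 90), 47 in Col4a2 (186 and 28) and 27 in Col6a2 (81 and 8). In the type V chains it had 65 introns in Col5a1 (30 and 11 reads), 66 in Col5a3 (23 and 5) and 53 in Col5a2 (22 and 5). Col11a2 had 10 and 5 reads in an annotated chain of 65 introns, Col15a1 had 20 and 5 in one of 39 and Col18a1 had 18 and 3 in one of 41. The most-read such chain of Col1a2 was an unannotated one of 49 introns (21 and 3 reads), and that of Col16a1 an unannotated one of 70 introns (6 and 1).

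Other unannotated chains with at least 5 reads in a library were minor. Col1a1 had 6 and Col3a1 had 4, the largest with 28 and 7 reads and 25 and 14 reads. Col1a2 had 2 more, with 9 and 3 reads and 6 and 0, and Col6a2 had 1, with 6 and 0. Most differed from an annotated chain by a small shift of a splice site. Of the unannotated junctions of Col1a1 with at least 3 reads, 11 of 13 in replicate 1 and 4 of 4 in replicate 2 lay within 10 bases of an annotated junction and left no exon out, and in Col3a1 10 of 11 and 3 of 3 did.

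The type I and III genes, and Col5a1 and Col5a2 of type V, had models with 3′ ends short of the annotated end. A model carries a single end for all its reads, and Known models carry the annotated one, so ends were counted over reads of spliced models outside the Known class. Bins of fewer than 3 reads were left out of the totals. In Col1a1, 716 of 813 such reads in replicate 1 and 401 of 428 in replicate 2 were in models ending in the 50-base bin that starts 1150 bases before the annotated end. In Col3a1, 599 of 633 and 297 of 327 ended in the bin that starts 650 bases before it. In Col1a2 the reads divided between the bin at the annotated end (213 of 599 and 142 of 355) and bins that start 550 bases before it in replicate 1 (386) and 500 before it in replicate 2 (188). In Col5a2, 32 of 52 and 15 of 20 reads ended in the bin that starts 1450 bases before the annotated end. In Col5a1 only 22 of 90 and 4 of 46 reads were in the bin at the annotated end. Col4a1 and Col5a3 differed from these. In Col4a1, 410 of 420 such reads in replicate 1 and 127 of 133 in replicate 2 ended at the annotated end, and in Col5a3 57 of 60 and 29 of 29 did.

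Enzymes and chaperones of collagen synthesis were all detected. Of 22 such genes each had a read, and they summed to 1154 CPM in replicate 1 and 972 in replicate 2. Serpinh1, the collagen-specific chaperone Hsp47, had 310 reads (248 CPM) and 379 reads (343 CPM). P4hb, the shared subunit of prolyl 4-hydroxylase, had 434 and 192 reads. Ppib, a prolyl isomerase, had 64 and 122 reads and was called higher in replicate 2 (log2 ratio -1.38, Fisher's exact test, adjusted p = 4.35e-06), but its log2 ratio was -0.36 and the call was lost with the length trend removed. Hsp90b1, a chaperone of the endoplasmic reticulum, had 69 and 93 reads. P3h3, of the prolyl 3-hydroxylase family, had 27 and 8 reads and was called higher in replicate 1 (log2 ratio 1.24, adjusted p = 0.022), a call that was also lost with the length trend removed, at a log2 ratio of 0.9987. Without removal of the trend, the other 15 of the 17 tested genes were not called, against 20.2% called over all genes, and the list's median log2 ratio was 0.53.

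Genes of later steps summed to less. Of 15 processing and crosslinking genes 12 had reads, with sums of 380 and 352 CPM, and none of the 7 tested was called, against 20.2% of all genes. Those with the highest means were Pcolce, an enhancer of procollagen cleavage (257 and 252 reads), Bmp1, the C-proteinase (63 and 37), Adamts2, an N-proteinase (54 and 33), and Lox, a crosslinking oxidase (36 and 27). Of 14 degradation genes 11 had reads, with sums of 400.4 and 310.0 CPM, and 1 of 10 tested was called, against 20.2% of all genes. It was Timp4, an inhibitor of metalloproteinases, with 68 and 23 reads (log2 ratio 1.08, Fisher's exact test, adjusted p = 0.000233), whose log2 ratio was 0.63 and no longer called with the length trend removed. Timp2, another inhibitor, had 112 and 115 reads, the gelatinase Mmp2 had 126 and 84, and Mmp15, a membrane-type protease, had 80 and 39. The interstitial collagenases Mmp8 and Mmp13 and the gelatinase Mmp9 had no read.

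Receptors and growth factors completed the lists. Of 12 collagen receptor genes 10 had reads, with sums of 313 and 165 CPM, and 1 of 5 tested was called, a share near the 20.2% of all genes: Adgrg1, an adhesion receptor for type III collagen, with 60 and 16 reads (log2 ratio 1.42, Fisher's exact test, adjusted p = 3.85e-05). Itgb1, the shared beta chain of collagen-binding integrins, had 270 and 113 reads, Ddr1 had 28 and 24 and Cspg4 had 12 and 13. The platelet receptor Gp6 and the immune receptor Lair1 had no read. Of the 17 symbols of the TGF-beta axis, a main inducer of collagen genes in fibroblasts, 16 had reads, the exception being Ctgf, an older symbol of Ccn2. They summed to 549 and 253 CPM, with a median log2 ratio of 0.74. Here 2 of 15 tested were called, against 20.2% of all genes, both as higher in replicate 1 (8.83% of all genes in that direction). They were Smad4, the common signal carrier (83 and 28 reads, log2 ratio 1.09, Fisher's exact test, adjusted p = 3.08e-05), and Ccn2, a matricellular target (48 and 9 reads, log2 ratio 1.89, adjusted p = 8.7e-06). With the length trend removed Ccn2 kept its call (1.79) and Smad4 lost it (0.75), while Tgfb2 (6 and 13 reads) gained a call as higher in replicate 2 (-1.97). Ltbp4, which binds the latent growth factor in the matrix, had 319 and 122 reads, and Tgfb3, a ligand, had 61 and 24.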

How the data were processed

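The authors deposited raw counts of reads for every transcript model of a library and a list of its exons, made with TALON per the file headers and on mm10 and GENCODE M21 per the notes beside the files. Aligner and versions: not given in the sources used here. Reads were summed over the models of each annotated gene. Gene spans are those of GENCODE M21, since the deposited gene records of 32 collagen genes gave other spans. Sequences are from the GENCODE M21 transcripts. Main transcripts, structural classes, lists and members were chosen with earlier results of these data known.

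Both libraries form 1 group. Genes with at least 10 reads were compared by a two-sided Fisher's exact test against the library totals, with Benjamini-Hochberg adjustment over all of them. The log2 ratio is of TMM-scaled CPM (edgeR 4.0.16, R 4.3.3) with a prior count of 0.5. TMM moved every ratio by -0.28 against scaling by the total. The test was tested on simulated data. The length trend was a lowess of the ratios on transcript length, followed by an exact binomial test. An informative read includes an exon through both junctions or skips it. Helix runs of at least 5 triplets were counted. Shares and ratios have Wilson 95% intervals, which cover counting error alone, since without molecular identifiers reads may repeat a molecule. Every member was accounted for, those with at least 50 reads one by one. In other lists the 4 genes with the highest mean and all called genes were named, and up to 3 of each marker list; 1 Schwann cell marker, the sum of its list and 1 exon are not reported here. Alternatives were DESeq2 1.42.0 size factors, scaling by the total, other filters, other model classes and each library alone.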

Additional observations from a re-analysis of the deposited data

Results flagged for a closer look

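Unannotated models on the strand opposite to collagen genes lie outside the comparisons above. They are listed here where they exceeded the 3 reads that a count of 0 allows, and nearly all had a single exon. Opposite to Col1a1 there were 51 reads in replicate 1 and 457 in replicate 2, which is 1.06% and 30.03% of the reads of Col1a1 itself, and 451 of the reads in replicate 2 were in 1 model at chr11:94952531-94953042, at the 3′ end of the gene. In replicate 1, 47 of the 51 reads were in 1 model whose deposited start and end are the same base (94952741), so its extent is doubtful. Opposite to Col1a2 there were 5 and 50 reads, 44 of them in a model over the first exon in replicate 2. In replicate 2 there were 13 reads opposite to Col3a1, 8 opposite to Col19a1, 7 opposite to Col5a2 and 4 opposite to Col4a1. Over all collagen genes there were 67 such reads in replicate 1 and 556 in replicate 2. Whether these reads are antisense transcripts was not tested.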

How the results depend on the processing

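No paired analysis was possible because the libraries form a single group. Collagen genes called numbered 2, with DESeq2 size factors, without a filter and with at least 20 reads also 2, with the length trend removed 3, with scaling by the total 5, in models of 2 or more exons 6 (an alternative chosen after seeing the data), in full splice models 10 and with edgeR's exact test 0. In full splice models the fibrillar share was 89.5%, the basement membrane share 6.62% and the beaded filament share 2.46%; in models of 2 or more exons the first 2 were 85.1% and 9.91%, and per kilobase the beaded filament share was 4.35%. The log2 ratios of paired chains in full splice models were 6.12 for Col1a1 over Col1a2, 1.54 for Col4a1 over Col4a2 (-0.27 over all reads) and 1.59 for Col6a1 over Col6a2. Without Col1a1 and Col3a1, Known models held 20.1% and ISM models 66.8% of collagen reads, as means of the libraries. With 1 library left, alternative exons numbered between 0 and 3, the collagen share lay between 0.481 and 1.01%, and the log2 ratio of Col4a1 over Col4a2 lay between -1.32 and 0.78. The multiple-of-9 share was 62.5% over all annotated internal exons.

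Log2 ratios of single genes that turned sign were those of Col4a2 (2.12 in full splice models and 1.11 in models of 2 or more exons), Col1a2 (0.12 scaled by the total, 1.16 in full splice models and 0.13 in models of 2 or more exons), Col15a1 (1.37 and 0.62 in the same model sets), Col11a2 (0.35 in full splice models), and Col5a3 and Col16a1 (-0.34 and -0.10 with the length trend removed). The cause was not tested. Of 112 other settings tried for the 14 genes with at least 50 reads, 90 kept direction and side of the threshold. Depth limits the genes under 10 reads, for which no difference was detectable.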
